A study of Mus musculus with 36 samples.

Results

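The genes described here are 36 genes that cells use to enter and pass through mitosis, chosen by name for their known roles in G2 and M phase: B-type cyclins and cyclin A2 with their kinase Cdk1, mitotic kinases, spindle checkpoint and kinetochore genes, spindle motors, cytokinesis genes, and the chromosome genes Top2a and Mki67. All 36 are among the 25239 genes of the table, and all 36 passed the filter on low values that left 13293 genes for testing. The cells were N2a, a mouse neuroblastoma line that divides rapidly in culture. They were transfected with plasmids for RfxCas13d, an RNA-guided RNA nuclease, or for dRfxCas13d, its catalytically dead form. Each nuclease went in by itself, beside an NT crRNA that targets no transcript, or beside 1 of 7 crRNAs against Sik3-S (crRNA 1 and 8), Map2 (1 and 3), Mapt (4 and 6) or Rbfox3 (5, a number that other labels of the same samples give as 6). GFP-positive cells were collected 48 h later, and each of the 18 groups had 2 libraries, 36 in all. The design asks what the active nuclease does to the transcriptome beyond cutting its target. No label says that the 2 libraries of a group came from separate transfections, so p-values measure the spread between libraries, which may be technical.

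Entry into mitosis is set by Cdk1 bound to cyclin A2, B1 or B2. The kinase is held inactive by phosphorylation until the phosphatases Cdc25b and Cdc25c release it. Chromosomes then condense, kinetochores attach to spindle microtubules, and a checkpoint kept by Bub1, Bub1b and Ttk delays anaphase until attachment is complete. The anaphase-promoting complex, with its activator Cdc20 and its ubiquitin-conjugating enzyme Ube2c, then marks cyclin B for destruction. Most of these genes are silent early in the cycle and are switched on together in G2, when the repressor complex DREAM has left their promoters and the factors Mybl2 and Foxm1 are bound.

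The promoters of 29 of the 36 members were found in a RefSeq promoter table (GRCm38.p6, the assembly also called mm10, 250 bases before and 50 after each start). The letters TTTGAA or TTTAAA, which form the cell cycle genes homology region where DREAM and its successor complex with Mybl2 and Foxm1 sit, were searched on both strands. They were present in 24 of the 29 windows, and in 27.8% of all 27025 promoters of the table. CCAAT, the letters bound by NF-Y, was present on either strand in 23 of the 29 windows and in 37.9% of all promoters. Both kinds were present in 20 of 29 windows, against 10.9% of all. Of the members that were higher with the active nuclease and targeting crRNAs, 17 of 20 matched ones held TTTGAA or TTTAAA, and of those that were lower, 4 of 6. A match of letters is a description and not a bound site. The windows of 2 members that rose, Cks1b (chr3:89418242-89418541, minus strand) and Cdk1 (chr10:69352863-69353162, minus strand), and of 2 that fell, Ccnb2 (chr9:70421505-70421804, minus strand) and Ndc80 (chr17:71526808-71527107, minus strand), are shown because these genes sit at opposite ends of the results below. They are written 5′ to 3′ along the gene, with the searched motifs of either strand in capitals. No base lies in more than 1 of the marked motifs.
Cks1b: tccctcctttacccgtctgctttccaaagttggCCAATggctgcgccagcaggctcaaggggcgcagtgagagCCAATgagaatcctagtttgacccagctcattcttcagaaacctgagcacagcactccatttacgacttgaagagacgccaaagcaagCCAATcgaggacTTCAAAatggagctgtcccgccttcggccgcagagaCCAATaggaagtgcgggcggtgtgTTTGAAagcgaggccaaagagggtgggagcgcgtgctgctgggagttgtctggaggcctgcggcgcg
Cdk1: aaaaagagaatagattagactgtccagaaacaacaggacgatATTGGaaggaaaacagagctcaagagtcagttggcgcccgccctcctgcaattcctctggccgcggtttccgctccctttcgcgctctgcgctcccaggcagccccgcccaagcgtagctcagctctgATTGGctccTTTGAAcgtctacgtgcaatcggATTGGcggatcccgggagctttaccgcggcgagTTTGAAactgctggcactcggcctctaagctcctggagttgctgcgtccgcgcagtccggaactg
Ccnb2: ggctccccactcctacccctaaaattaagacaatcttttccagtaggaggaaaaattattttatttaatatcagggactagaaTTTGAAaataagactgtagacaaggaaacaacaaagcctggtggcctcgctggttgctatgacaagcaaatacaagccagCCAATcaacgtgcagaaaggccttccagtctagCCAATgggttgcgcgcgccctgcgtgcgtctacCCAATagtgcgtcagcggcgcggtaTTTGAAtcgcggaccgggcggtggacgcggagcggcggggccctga
Ndc80: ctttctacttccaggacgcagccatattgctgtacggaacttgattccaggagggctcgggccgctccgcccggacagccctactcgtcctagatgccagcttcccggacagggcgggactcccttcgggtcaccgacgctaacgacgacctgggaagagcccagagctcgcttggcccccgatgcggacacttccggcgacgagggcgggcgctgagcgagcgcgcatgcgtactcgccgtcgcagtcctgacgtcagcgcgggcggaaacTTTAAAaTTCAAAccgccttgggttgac

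Depth was estimated at 8630000 to 12130000 fragments in the dRfxCas13d libraries and 10320000 to 16420000 in the RfxCas13d libraries, so the active libraries were the deeper ones. Sik3, Map2 and Mapt mRNA fell to 7.08 to 10.8% of the dead-nuclease mean with their own crRNAs. Rbfox3 was at most 0.113 FPKM (fragments per kilobase of summed exons, corrected for depth) in the libraries given its crRNA, so its knockdown could not be read. Of the neuroblast markers, Hand2 was 141 to 216 FPKM and Tubb3 293 to 447 FPKM over the libraries, while Th, Nefl and Nefm stayed under 1 FPKM in every library. The summed level of 7 fibroblast genes was at most 8.30 FPKM, of 6 macrophage genes 5.72 and of 6 glial genes 5.12. RfxCas13d with NT crRNA, replicate 1, stood apart: its 8 hepatocyte markers summed to 428 FPKM, led by Alb at 263, against at most 9.0 in any other library. The counts of members that use it, and the NT values of the genes described most fully, are given with and without it.

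All members were well expressed. Mean levels over the 36 libraries ran from 16.8 to 161 FPKM with a median of 36.4, against a median of 10.7 for all genes tested. Ube2c and Top2a, which untangles replicated chromosomes, were the highest members, at 161 ± 12.7 and 160 ± 13.2 FPKM (SD, n = 36), and these neighbours overlapped throughout. Cks1b came next at 107 ± 19.9, then the proliferation marker Mki67 at 85.1 ± 9.90. At the other end stood Cenpe, a kinetochore motor, at 16.8 ± 1.41 and Cdc25c at 16.8 ± 1.45, which also overlapped. By fragments, the lowest value of a member at the lowest depth corresponded to about 130 to 11110, with a median of 1160. Over the 18 dead-nuclease libraries the coefficient of variation of a member was 2.38 to 14.4% with a median of 6.84%, against a median of 10.4% for all genes tested. Top2a varied least and Mki67 most.

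With targeting crRNAs the members split. Averaged over the 7 crRNAs, 24 of 36 were higher with RfxCas13d than with dRfxCas13d at an adjusted p under 0.05, and 7 were lower. Of all genes tested, 40.6% were higher and 38.1% lower in this contrast, so a call in itself was common, and the members' calls leaned upward where those of all genes were nearly even. The median member differed by 0.10 on the log2(FPKM + 1) scale, against 0.01 for all genes. This median of the members was 0.08 on the deposited scale, 0.16 once a length trend was removed and 0.006 after quantile normalization. No member reached a fold of 2, which 1.65% of genes did in the upward and 0.715% in the downward direction. The lean depended on scaling: after quantile normalization 14 members were higher and 10 lower, and the share of higher calls went from 77.4% to 58.3%. In bulk RNA, more cells in G2 or M and more mRNA per cell cannot be told apart. The heat map below gives all 36 members in the 9 crRNA conditions.

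**Figure D1:**
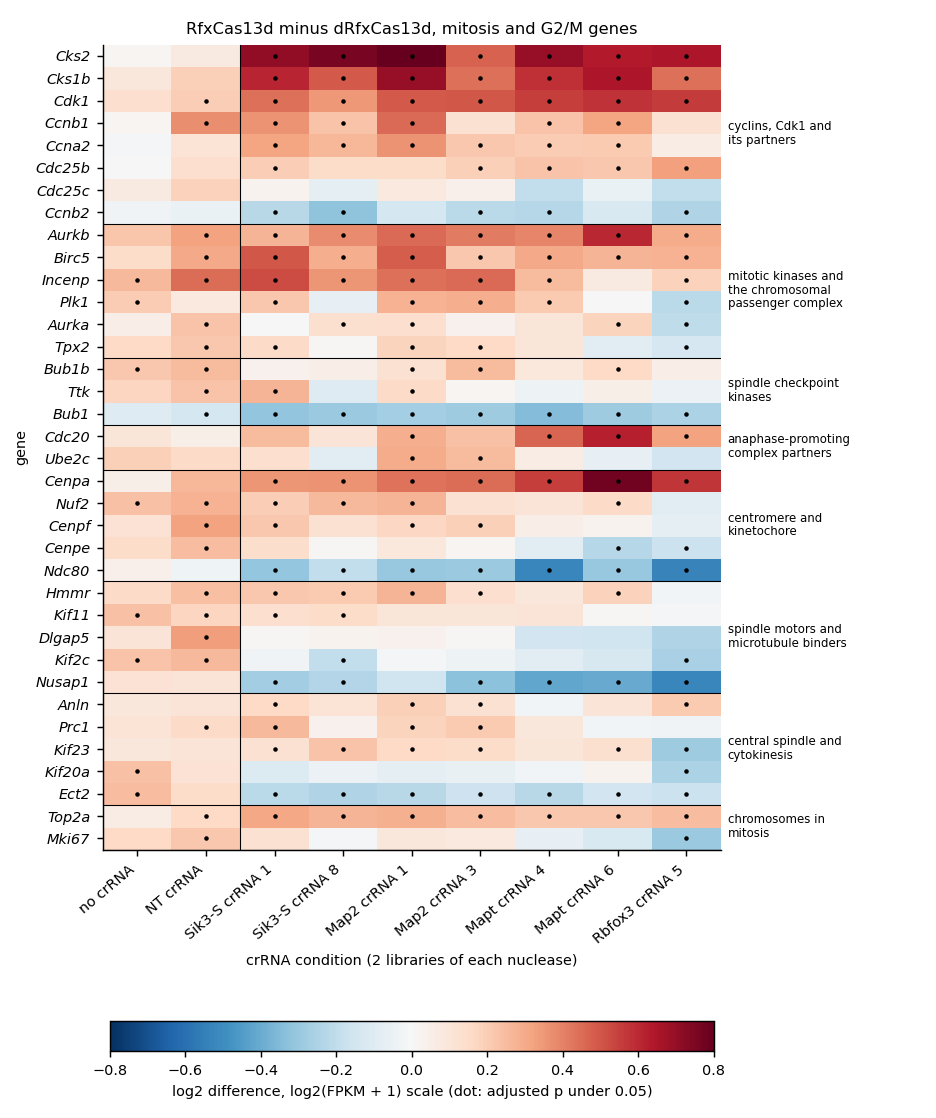
Heat map of the log2 difference between RfxCas13d and dRfxCas13d for the 36 members (rows, grouped by role) in the 9 crRNA conditions (columns, 2 libraries of each nuclease). Red is higher and blue lower with RfxCas13d, a dot marks an adjusted p under 0.05, and the vertical line separates targeting crRNAs from their controls: Cks2, Cks1b, Cdk1 and Cenpa are red and Bub1, Ndc80 and Ect2 blue with all 7 targeting crRNAs.

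The clearest increases were in Cdk1 and the small Cks proteins, which bind Cdk1 and help it to recognise substrates that are already phosphorylated. Cks2 was 21.7 to 30.0 FPKM in the 14 dead-nuclease libraries with targeting crRNAs (median 25.1) and 37.2 to 45.0 in the 14 active ones (median 40.6). The 14 active libraries were all above the 14 dead ones. The fold was 1.60 (log2 difference 0.68 ± 0.042 SE, adjusted p 7.1e-13). Cks1b was 80.6 to 96.5 FPKM (median 89.6) with the dead and 116 to 143 (median 131) with the active nuclease, a fold of 1.47 (0.56 ± 0.026, adjusted p 4.2e-15). Cdk1 was 31.8 to 40.9 (median 36.8) against 45.5 to 55.2 (median 50.7), a fold of 1.41 (0.50 ± 0.025, adjusted p 2.3e-14). Neither gene overlapped between the nucleases. The cyclins did not move as a group. Ccnb1 rose 1.2-fold and Ccna2 1.18-fold, while Ccnb2 fell: its libraries were at 37.6 to 44.7 FPKM (median 39.4) with the dead and 28.9 to 37.6 (median 33.8) with the active nuclease, a log2 difference of -0.21 ± 0.027 (adjusted p 2.3e-07). The 2 groups of Ccnb2 values met at 37.6 FPKM. Of the phosphatases, Cdc25b rose 1.15-fold. Cdc25c was 14.4 to 19.1 FPKM (median 17.5) with the dead and 13.9 to 18.2 (median 16.4) with the active nuclease, which largely overlapped (-0.05 ± 0.041, adjusted p 0.24).

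All 6 mitotic kinase and chromosomal passenger genes were higher, though 3 of them (Plk1, Aurka and Tpx2) not after quantile normalization. Aurka and Tpx2 did not pass on the deposited scale either. The passenger complex, Aurkb with its scaffold Incenp and its partner Birc5, corrects faulty spindle attachments. Aurkb rose 1.32-fold, Birc5 1.26-fold and Incenp 1.25-fold. The increases of Plk1 (1.07-fold), Aurka (1.04-fold) and its activator Tpx2 (1.04-fold) were small. After quantile normalization none of these 3 was above 0, Aurka being called lower. Once a length trend was removed, Plk1 and Aurka were called lower and Tpx2 did not pass. Of the checkpoint kinases, Bub1 fell and Bub1b rose 1.08-fold, the latter not past the test after quantile normalization. Bub1 was 32.8 to 37.1 FPKM (median 34.5) with the dead and 25.8 to 29.9 (median 27.8) with the active nuclease, with no overlap and a log2 difference of -0.29 ± 0.015 (adjusted p 2.7e-14). Ttk differed by 0.04 ± 0.020 (adjusted p 0.060).

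Centromere and kinetochore genes went both ways. Cenpa, the histone H3 variant that marks centromeres, was 24.2 to 38.5 FPKM (median 34.2) with the dead and 42.4 to 48.8 (median 45.6) with the active nuclease. Its groups did not overlap, and the fold was 1.41 (0.50 ± 0.037, adjusted p 2.2e-11). Ndc80, which carries the microtubule-binding end of the kinetochore, was 39.0 to 47.2 (median 44.4) and 30.5 to 39.1 (median 33.9). Its highest active library, Mapt crRNA 6 replicate 2, just passed the lowest dead library, and the log2 difference was -0.35 ± 0.022 (adjusted p 6.0e-13). Nuf2, the subunit that pairs with Ndc80, rose 1.11-fold and Cenpf 1.07-fold, and Nuf2 did not pass after quantile normalization. Cenpe was 15.2 to 20.5 (median 17) against 15.2 to 17.7 (median 16.5), with a difference of -0.03 ± 0.024 (adjusted p 0.19), which turned positive once a trend with gene length was removed.

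Among motors and microtubule binders, Nusap1, which bundles spindle microtubules, was 29.6 to 40.1 FPKM (median 32.3) with the dead and 22.9 to 28.5 (median 25.2) with the active nuclease. No library of one kind reached the other, and the log2 difference was -0.34 ± 0.028 (adjusted p 1.8e-10). Kif2c, which takes microtubules apart at their ends, fell to 0.927 of its dead-nuclease level, while Hmmr rose 1.11-fold and the motor Kif11 1.06-fold, the latter not past the test after quantile normalization. In the cytokinesis group Ect2, which activates RhoA at the cleavage furrow, fell to 0.871 and Kif20a to 0.948 of the dead-nuclease level. Anln, Prc1 and Kif23 rose 1.09-, 1.07- and 1.06-fold, but after quantile normalization neither Prc1, then below 0, nor Kif23 passed. Cdc20 rose 1.25-fold. Top2a was 143 to 154 FPKM (median 149) with the dead and 168 to 185 (median 175) with the active nuclease, with no overlap (0.26 ± 0.012, adjusted p 3.9e-15), but its difference was -0.00 after quantile normalization. Ube2c was 133 to 191 (median 159) against 143 to 180 (median 167), a difference of 0.06 ± 0.027 (adjusted p 0.036, not passed on omitting any of 13 libraries). It turned negative and was called lower both after quantile normalization and after removal of a length trend. On the deposited scale Ube2c did not pass (0.04). Mki67 and Dlgap5 did not pass (adjusted p 0.31 and 0.17).

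**Figure D2:**
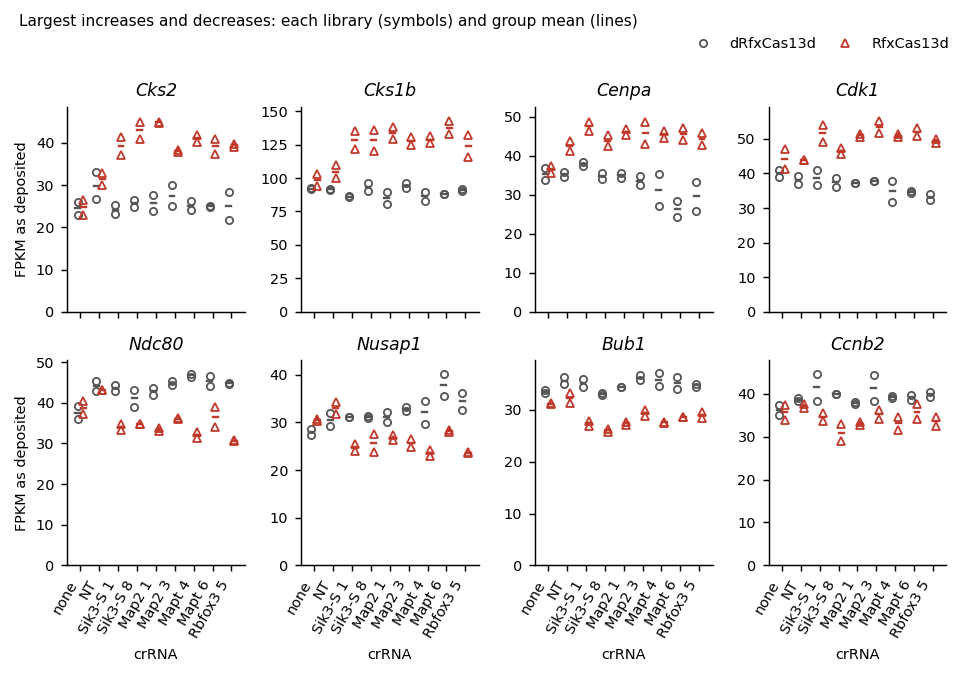
Deposited FPKM (vertical axis, from 0) of the 4 members with the largest increases and the 4 with the largest decreases, in every library, by crRNA (horizontal axis). Grey circles are dRfxCas13d and red triangles RfxCas13d libraries, and lines are means of 2: with targeting crRNAs, red lies above grey for Cks2, Cks1b, Cenpa and Cdk1 and below grey for Nusap1 and Bub1 in all 28 libraries, while with no crRNA the 2 nucleases lie close together.

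Each targeting crRNA was also compared by itself. With Sik3-S crRNA 1, 21 members were higher and 5 lower (26.4% and 25.4% of all genes). With Sik3-S crRNA 8, 15 were higher and 6 lower (26.1% and 25.5%). With Map2 crRNA 1, 23 were higher and 3 lower (27.1% and 25.7%). On the deposited scale Map2 crRNA 1 had 17 higher and 6 lower. The higher counts of Sik3-S crRNA 1 and Map2 crRNA 1 could also fall on omitting a single library. With Map2 crRNA 3, 19 were higher and 5 lower (23.2% and 22.9%), and 11 were higher without dRfxCas13d replicate 1 and 3 lower without RfxCas13d replicate 2. With Mapt crRNA 4, 13 were higher and 5 lower (27.9% and 26.8%), and 3 lower without RfxCas13d replicate 1 or dRfxCas13d replicate 2. With Mapt crRNA 6, 16 were higher and 5 lower (27.5% and 26.6%), and 3 lower without dRfxCas13d replicate 1 or RfxCas13d replicate 2. With Rbfox3 crRNA 5, 11 were higher and 13 lower (26.4% and 24.8%), more lower than higher. That excess was not kept when its 4 libraries were fitted alone (7 higher and 5 lower). It could also be lost on omitting a single library. After quantile normalization Mapt crRNA 6 also had more lower calls (10, against 9 higher). These 7 comparisons share no libraries. Aurkb, Birc5, Cdk1, Cenpa, Cks1b, Cks2 and Top2a were higher with all 7, that is 7 of 36 members against 13.1% of all genes. Bub1, Ect2 and Ndc80 were lower with all 7, against 12.9% of genes. After quantile normalization these counts were 4 and 5. By level alone, the same 7 members had all 14 active libraries above all 14 dead ones (11.8% of genes), and Bub1 and Nusap1 all 14 below (13.4% of genes).

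Without a crRNA, 8 members were higher with RfxCas13d and 0 lower, against 2.52% and 2.84% of all genes. The largest of the 8 were Incenp (0.26 ± 0.077, adjusted p 0.049), Ect2 (0.25 ± 0.063, adjusted p 0.023) and Kif11 (0.23 ± 0.054, adjusted p 0.012). Bub1b, Kif20a, Kif2c, Nuf2 and Plk1 were the others, at 0.20 to 0.23. The count rested on the libraries: it was 0 without dRfxCas13d replicate 1, 1 without RfxCas13d replicate 1, 4 without replicate 2 of either nuclease, and 0 in a fit of these 4 libraries alone. Cks2 (0.01 ± 0.111, adjusted p 0.98), Cenpa (0.05 ± 0.099, adjusted p 0.86) and Cks1b (0.09 ± 0.069, adjusted p 0.53) did not pass. For Cks2 the libraries were 22.9 and 26.1 FPKM with the dead and 23.0 and 26.6 with the active nuclease.

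With NT crRNA, 19 members were higher and 1, Bub1 (-0.14 ± 0.040, adjusted p 0.015), was lower, against 11.0% and 11.3% of all genes. Incenp rose most, from 29.0 and 32.8 FPKM to 42.4 and 42.6 (0.45 ± 0.077, adjusted p 0.00024). Ccnb1 rose from 57.4 and 58.1 to 74.7 and 75.5 (0.37 ± 0.057, adjusted p 7.2e-05). Aurkb, Cenpf, Birc5, Nuf2, Kif2c and Bub1b were among the others. After quantile normalization Cdk1, Kif11, Dlgap5, Prc1, Mki67 and Top2a did not pass. The median of the members with NT crRNA then went from 0.19 to 0.15. Without the library that carried hepatocyte RNA, 15 were higher and 0 lower, and the differences were 0.44 ± 0.097 for Incenp and 0.38 ± 0.071 for Ccnb1. Without dRfxCas13d with NT crRNA replicate 1, 12 were higher, without its replicate 2 none was lower, and in a fit of these 4 libraries alone 5 were higher and 0 lower. Cks2 was 26.7 and 33.1 FPKM with the dead and 30.0 and 32.8 with the active nuclease (0.07 ± 0.111, adjusted p 0.69). Of the 19 members higher with NT crRNA, 14 were also higher in the mean of the targeting crRNAs, where 24 of all 36 members were higher. The same overlap over all genes was not computed, so no agreement between the settings is read from it. Kif2c was higher with NT crRNA (0.26 ± 0.054, adjusted p 0.0015) and lower with targeting crRNAs (-0.11 ± 0.021, adjusted p 4.8e-05).

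The difference between these differences was tested directly. The signed RfxCas13d minus dRfxCas13d difference was higher with targeting than with NT crRNA for 4 members and lower for 14. The shares over all genes were 15.6% and 15.0%. The 4 were Cks2 (0.60 ± 0.118, adjusted p 0.00050), Cks1b (0.37 ± 0.074, adjusted p 0.00058), Cdk1 (0.30 ± 0.072, adjusted p 0.0029) and Top2a (0.10 ± 0.034, adjusted p 0.029). Top2a did not pass on the deposited scale or without the library that carried hepatocyte RNA (0.08), and its sign turned after quantile normalization. Once a length trend was removed, Cks1b did not pass, nor did Cenpe, Cenpf and Mki67 among the 14 lower ones, and the sign of Cenpf turned. Nusap1 (-0.44 ± 0.080, adjusted p 0.00023), Dlgap5 (-0.40 ± 0.125, adjusted p 0.018) and Kif2c (-0.37 ± 0.058, adjusted p 5.6e-05) stood at the other end. The remaining 11 were Ect2, Ndc80, Cenpe, Mki67, Cenpf, Ttk, Kif20a, Aurka, Tpx2, Bub1b and Bub1. For Bub1 the fall was larger with targeting (-0.29) than with NT crRNA (-0.14). Aurkb, Birc5 and Incenp, which rose in both settings, gave 0.08 ± 0.083, 0.03 ± 0.079 and -0.12 ± 0.082 (adjusted p 0.50, 0.82 and 0.28). Without the hepatocyte-marked library Cks2 was at 0.54, Cks1b at 0.30 and Cdk1 at 0.30. The count of 14 was 6 without dRfxCas13d with NT crRNA replicate 1, and 9 and 8 without replicate 1 and 2 of RfxCas13d with NT crRNA. Dlgap5 did not pass without replicate 1 of either NT group, and its dead-nuclease NT libraries were far apart at 16.0 and 23.2 FPKM. Between NT crRNA and none, the effect differed for Ccnb1 (0.35 ± 0.080, adjusted p 0.019) and no other member (1.36% of genes above and 1.17% below). That call was lost on omitting any of the 8 libraries of those groups but dRfxCas13d replicate 2.

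**Figure D3:**
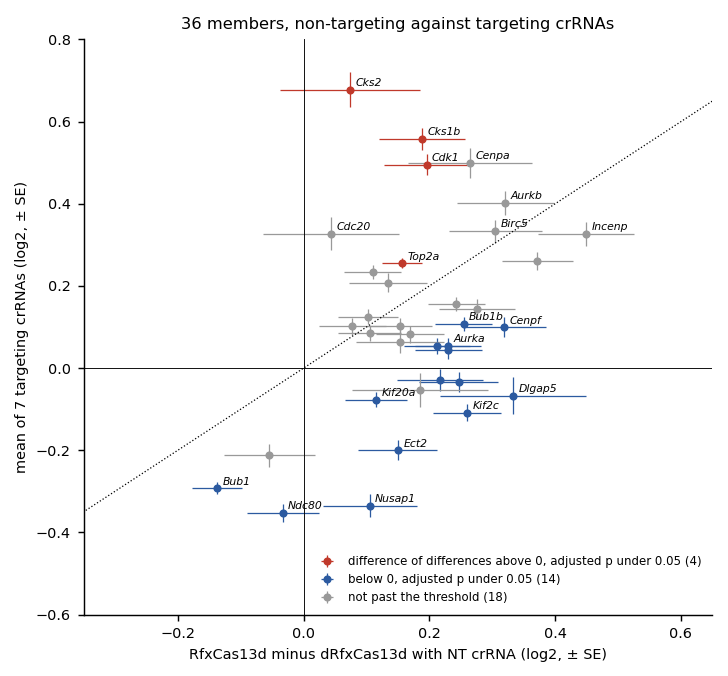
Log2 difference between RfxCas13d and dRfxCas13d with NT crRNA (horizontal axis) against the mean over the 7 targeting crRNAs (vertical axis) for the 36 members, with standard errors and the line of equality (dotted). The 4 red members (Top2a not after quantile normalization or on the deposited scale, Cks1b not once a length trend was removed) lie above the line and the 14 blue ones (Cenpe, Cenpf and Mki67 not once a length trend was removed) below it at an adjusted p under 0.05 for the difference: Cks2 is near 0 with NT crRNA and at 0.68 with targeting crRNAs, and Nusap1 is at 0.11 and -0.34.

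The active libraries were also compared alone. All of them enter the test above, so this comparison is no independent support for it. In RfxCas13d cells 5 members were higher with targeting than with NT crRNA and 13 lower (20.7% and 20.3% of genes), led by Cks2 (0.39 ± 0.084) and Cks1b (0.33 ± 0.052) above and Nusap1 (-0.34 ± 0.056), Ndc80 (-0.31 ± 0.043) and Ect2 (-0.30 ± 0.048) below. The lower count was 9 without replicate 1 and 8 without replicate 2 of RfxCas13d with NT crRNA, and the higher count 4 and 5. In dRfxCas13d cells 3 were higher and 1 lower (3.97% and 4.46% of genes): Incenp, Mki67 and Cenpe above, and Cdc20 below. These 4 calls rested on single libraries: the 3 became 0 without dRfxCas13d with NT crRNA replicate 2 and 1 without its replicate 1 or without Map2 crRNA 3 replicate 2, and Cdc20 was lost on omitting any of 16 libraries. NT crRNA was also set against none, in a comparison added after the values were seen. In dRfxCas13d cells the median member differed by 0.07 (0.0009 for all genes), with 27 members above 0 and 9 below. In RfxCas13d cells the median member differed by 0.13 (0.0018 for all genes). There 9 members were called higher and 0 lower (7.69% and 7.03% of genes), with Cks2, Mki67, Aurka and Ccnb1 the largest. Without RfxCas13d with NT crRNA replicate 1 this count was 4, and Cks2 did not pass (0.40 ± 0.137, adjusted p 0.084).

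Members also differed among the targeting crRNAs, tested by a moderated F test over the 7 crRNAs that was added after the values were seen. The RfxCas13d against dRfxCas13d difference varied among crRNAs for 14 of 36 members (11.8% of all genes). The dead-nuclease level varied for 17 members (23.1% of genes) and the active level for 12 (21.4% of genes). Plk1, Kif23, Aurka, Ttk, Ccna2, Mki67 and Hmmr passed all 3 of these tests. With dRfxCas13d, Plk1 was 65.3 and 60.2 FPKM with Mapt crRNA 6 and 68.9 and 63.9 with Rbfox3 crRNA 5, and 49.1 to 56.8 with the other 5 crRNAs. Mki67 was 109 and 98.7 with Mapt crRNA 6 and 107 and 94.3 with Rbfox3 crRNA 5, and 77.9 to 86.9 with Sik3-S and Map2 crRNAs. Cenpa went the other way, with 24.2 and 28.5 FPKM for Mapt crRNA 6. Mapt crRNA 4 was uneven, at 35.2 and 27.3 for Cenpa and at 82.4 and 98.0 for Mki67. Against dRfxCas13d with NT crRNA, 12 members were higher with Mapt crRNA 6 and 2, Cdc20 (-0.46 ± 0.108) and Cenpa (-0.39 ± 0.099), were lower (11.1% and 11.2% of genes). Incenp rose most (0.54 ± 0.077), then Mki67 (0.42 ± 0.069) and Cenpe (0.36 ± 0.063). With Rbfox3 crRNA 5, 6 were higher and Cdc20 lower (6.17% and 7.71% of genes). These dead-nuclease libraries enter each crRNA's own comparison, and their part in it was not tested.

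**Figure D4:**
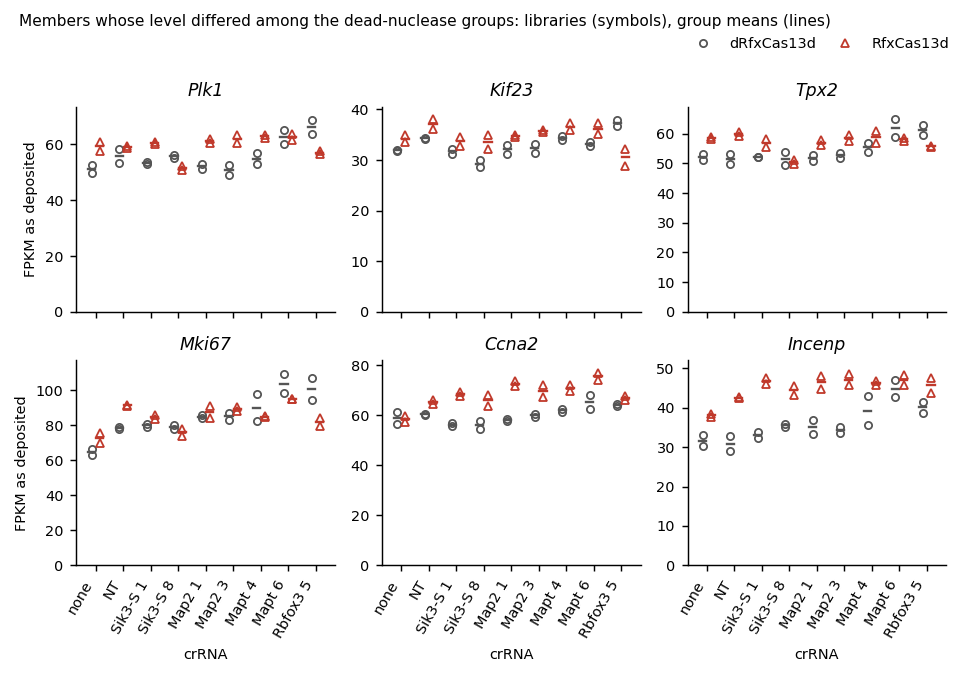
Deposited FPKM (vertical axis, from 0) in every library by crRNA (horizontal axis) for 6 members whose dead-nuclease level varied among the targeting crRNAs, with symbols and lines for libraries and means of 2. Dead-nuclease libraries (grey) with Mapt crRNA 6 and Rbfox3 crRNA 5 are high for Plk1, Mki67, Tpx2 and Incenp, and with Rbfox3 crRNA 5 the active libraries (red) of Plk1 and Kif23 lie below the dead ones.

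Rbfox3 crRNA 5 stood apart in its direction in the fit over all 18 groups, though not when its 4 libraries were fitted alone. Its difference between the nucleases was below the mean of the other 6 for 11 members and above it for 0 (3.33% and 3.01% of genes), in a test added after the values were seen. Kif23, a central spindle motor, was 36.8 and 37.9 FPKM with the dead and 32.2 and 28.8 with the active nuclease, and the difference from the other crRNAs was -0.43 ± 0.054 (adjusted p 4.4e-05). Plk1 differed by -0.37 ± 0.057 (adjusted p 0.00049), Mki67 by -0.31 ± 0.074 and Aurka by -0.30 ± 0.056. Cks2, Cks1b, Cdk1 and Cenpa were not among the 11. The mean over the other 6 crRNAs gave 25 members higher and 7 lower. For each library the median of the members' deviations from each gene's mean over the 36 libraries was taken (log2). Among the active libraries it was -0.05 and -0.01 with Sik3-S crRNA 8 and -0.02 and -0.01 with Rbfox3 crRNA 5. It was -0.010 and -0.004 without crRNA, and 0.06 to 0.12 with the other 5 targeting crRNAs and NT crRNA. The dead libraries were at -0.13 and -0.10 with Sik3-S crRNA 8 and at 0.04 and -0.01 with Rbfox3 crRNA 5. Over all 18 dead libraries the range was -0.13 to 0.08.

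Other genes of the cycle were set beside the members. Of 120 further mitosis genes tested, 45 were higher and 53 lower in the mean of the targeting crRNAs, and 36 higher and 3 lower with NT crRNA. For these and the lists that follow, the shares over all genes were 40.6% and 38.1% with targeting crRNAs and 11.0% and 11.3% with NT crRNA. Their median difference was -0.00 and 0.12. The largest were Anapc11, the RING subunit of the anaphase-promoting complex, at 9.03 ± 0.545 against 15.7 ± 1.24 FPKM (SD, n = 14 each; log2 0.75 ± 0.035 SE), and Cenpw (0.75 ± 0.055) above, and the checkpoint gene Mad1l1, at 25.2 ± 4.12 against 14.4 ± 3.12 FPKM (-0.76 ± 0.028), and Cenpp (-0.67 ± 0.065) below. Of 52 G1/S and replication genes, 29 were higher and 17 lower with targeting crRNAs, 22 and 1 with NT crRNA, and 16 and 0 without crRNA. Without crRNA the shares over all genes were 2.52% and 2.84%, and the 120 further mitosis genes had 11 and 0. The dependence of these counts on single libraries is not given here. With targeting crRNAs Fen1, a flap endonuclease, rose from 26.8 ± 2.02 to 50.9 ± 4.21 FPKM (0.92 ± 0.033). Pold2 (0.60 ± 0.022) and Rpa2 (0.59 ± 0.017) also rose, and the primase-bound polymerase Pola1 fell (-0.71 ± 0.034). Rpa2 was higher with NT crRNA (0.54 ± 0.045) and with none (0.46 ± 0.045) as well.

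Among 26 regulators of the cycle tested, 17 were higher and 7 lower. The largest changes were in the Gadd45 genes, which are induced by stress, and in Cdkn2d. Gadd45b rose from 24.0 ± 2.26 to 66.8 ± 9.91 FPKM (SD, n = 14 each; log2 1.45 ± 0.031 SE) and Gadd45g from 80.7 ± 4.42 to 197 ± 25.8 FPKM (1.29 ± 0.018), with Gadd45a (0.89 ± 0.040) and Cdkn2d, an inhibitor of the G1 kinases Cdk4 and Cdk6 (0.72 ± 0.045). Cdkn1a, the p21 inhibitor, was 61.2 to 77.5 FPKM (median 65.3) against 64.8 to 83.3 (median 73.9), which overlapped (0.19 ± 0.021, adjusted p 1.1e-08). Foxm1 was 20.9 and 21.9 FPKM with the dead and 28.6 and 30.8 with the active nuclease and NT crRNA (0.46 ± 0.056, adjusted p 6.3e-06). With targeting crRNAs it was 22.5 to 27.4 (median 24.8) against 23.6 to 30.2 (median 27.3), a difference of 0.15 ± 0.021 (adjusted p 6.2e-07). That was smaller than with NT crRNA (-0.30 ± 0.060, adjusted p 0.00061). The dead-nuclease level of Foxm1 was itself higher with targeting crRNAs, at group means of 22.8 to 27.3 FPKM against 21.4 with NT crRNA. The active-nuclease means were 23.6 to 29.8 against 29.7. Mybl2 rose with NT crRNA (0.44 ± 0.080, adjusted p 0.00041), from 14.5 and 15.7 to 20.5 and 21.1 FPKM. It did not pass with targeting crRNAs (0.06 ± 0.030, adjusted p 0.079), and the difference between the settings did (-0.38 ± 0.085, adjusted p 0.0016). Without the hepatocyte-marked library the NT differences were 0.50 ± 0.068 for Foxm1 and 0.46 ± 0.10 for Mybl2, and the differences between settings -0.35 ± 0.072 and -0.40 ± 0.104, all past the test.

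Gene length was set beside the members' change. Across the 36 members Spearman's correlation of the summed exon length with the mean log2 difference was -0.24, and it was -0.39 across the 13187 tested genes with a length, both as descriptions, since members share libraries. The 4 members under 2000 nt, Cks2, Cks1b, Ccnb2 and Cdc20, had a median difference of 0.44 and the other 32 of 0.09. Without the 2 Cks genes, at 692 and 1126 nt the shortest, the correlation was -0.10. After a smooth length trend was removed, Cks2 differed by 0.47 and Cks1b by 0.35, and 22 members were higher and 10 lower. In 7 members some exon bases also belong to a gene of the table on the opposite strand, from 2.47% for Cdc25b to 29.3% for Kif20a, which overlaps Cdc23, and the counting's use of strand is not given in the sources used here.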

How the data were processed

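Poly(A)-type mRNA libraries of 36 sorted N2a samples were sequenced as read pairs. The authors trimmed reads (Trim Galore), aligned them with Subread to mm10, counted fragments per gene (featureCounts) and deposited FPKM values; their versions, the annotation and the strand setting were not stated in those sources. FPKM divides by summed exon length, so a shift in fragment length or coverage moves short genes most. Here each library was scaled by median of ratios (factors 0.976 to 1.03), genes with at least 1 FPKM in at least 2 libraries were kept, and log2(FPKM + 1) was fitted with limma 3.58.1 (R 4.3.3, intensity trend) over all 18 groups, which share 1 estimate of spread, with Benjamini-Hochberg adjustment over 13293 genes. A gene is called at an adjusted p under 0.05. All log2 differences are on the log2(FPKM + 1) scale, which understates low genes; intervals after ± are SE unless SD is given. An exact two-sided permutation test of 2 against 2 cannot go below 0.333. Depth was estimated from single-exon genes, where 94.3 to 98.2% of values were whole fragments within 0.1. The fit was tested on simulated data. Members and gene lists were chosen with earlier results of these data known. Named with values per library are the 4 largest increases and 4 largest decreases, the 2 highest and 2 lowest genes, the 3 largest differences between targeting and NT crRNA, the 4 largest of each other list, and Foxm1, Mybl2 and Cdkn1a; Top2a, Incenp, Ccnb1, Plk1, Kif23, Mki67 and any other member given per library was chosen after its values were seen. Alternatives were scaling (as deposited, quantile), pseudocounts of 0.5 and 0.1, other filters, a length trend, a replicate block, single comparisons fitted alone, and omission of each library. Some marker genes are not reported here.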

Additional observations from a re-analysis of the deposited data

Results flagged for a closer look

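The effect of the active nuclease differed between targeting and NT crRNAs, by the limma interaction test, for 4 members upward and 14 downward. The shares over all genes were 15.6% and 15.0%. Those upward were Cks2 (0.60), Cks1b (0.37), Cdk1 (0.30) and Top2a (0.10), all as log2 differences of differences. Top2a did not pass on the deposited scale or after quantile normalization, and Cks1b did not pass once a length trend was removed. Downward were, among others, Nusap1 (-0.44), Dlgap5 (-0.40), Ndc80 (-0.32), Cenpe (-0.28) and Bub1 (-0.15). Cenpe, Cenpf and Mki67 did not pass once a length trend was removed. Dlgap5 was -0.15 without dRfxCas13d with NT crRNA replicate 1 and did not pass, and the count of 14 was 6 without that library. With Rbfox3 crRNA 5 the effect was lower than with the other 6 targeting crRNAs for 11 members and higher for 0 (3.33% and 3.01% of genes). That test was added after the values were seen.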

How the results depend on the processing

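Quantile normalization changed most counts. It gave 13 members higher with Sik3-S crRNA 1, 9 with Sik3-S crRNA 8, 12 with Map2 crRNA 1 (and 6 lower), 12 with Map2 crRNA 3, 8 with Mapt crRNA 4, 9 with Mapt crRNA 6 (and 10 lower) and 14 in the mean of 7. It gave 3 higher and 20 lower for targeting against NT crRNA in RfxCas13d cells, and 4 higher and 5 lower with all 7 crRNAs. It turned Ube2c to -0.18 and Top2a to -0.000397. The cause was not tested. The deposited scale gave 6 lower with Map2 crRNA 1. Removing the length trend gave 5 there, with or without a replicate block, turned Ube2c to -0.086 and Cenpe to 0.13, and left 1 higher and 0 lower for targeting against NT crRNA in dRfxCas13d cells, as did no filter. Fits of 4 libraries alone, with fewer samples, gave 0 higher without crRNA, 5 higher and 0 lower with NT crRNA, 3 lower with each of Map2 crRNA 3, Mapt crRNA 4 and Mapt crRNA 6, 7 higher and 5 lower with Rbfox3 crRNA 5, and 1 lower with all 7. No scaling moved the median of all genes by over 0.0311. The median of the members went from 0.10 to 0.006 in the mean of 7 after quantile normalization, and from 0.19 to 0.15 with NT crRNA.

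Omitting each library in turn gave 0 to 9 members higher without crRNA, 12 to 20 higher and 0 to 1 lower with NT crRNA, 11 to 20 higher and 3 to 5 lower with Map2 crRNA 3, 3 to 6 lower with either Mapt crRNA, and 23 to 25 higher and 7 lower in the mean of 7. The difference between targeting and NT crRNA had 3 to 6 members above and 6 to 14 below, and that between NT crRNA and none 0 to 1. Targeting against NT crRNA gave 0 to 3 higher and 0 to 1 lower in dRfxCas13d cells and 8 to 14 lower in RfxCas13d cells.

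Libraries that share a replicate number did not deviate together (correlations -0.03 to 0.06), so the numbers do not pair them. With a replicate block the mean of 7 gave 24 higher and 7 lower calls, and 8 were higher and 2 lower with all 7 crRNAs.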
